A study of Drosophila melanogaster with 8 samples.

Results

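Peaks of 3xFLAG-tagged Daughterless (Da) in heads of adult Drosophila melanogaster gave 6649 genomic regions shared by both replicates and free of a Control peak. Of these, 286 (4.3%) had their summit in intergenic sequence far from any annotated start of transcription. These distal intergenic regions are described here. The regions were chosen by the measured peak calls and by position. Peaks of both 3xFLAG-Da lists had to overlap, regions touching a peak of either Control list were dropped, and the summit had to lie outside every annotated gene and over 2000 bp from every transcript start, with transposable elements left out of the gene models. From 3xFLAG-Da heads there were 2 immunoprecipitated (IP) libraries and 2 inputs, and the same from Control heads, 8 samples in all. In the 3xFLAG-Da line the endogenous Da protein carries the tag, so it is present in every cell that makes Da. The Control is the white* line, the background into which the tag was placed, and its genome lacks a FLAG sequence. All flies were 1 to 3 days old, male and female heads were taken in about equal number, and whole heads were used, so brain, eye, muscle, fat body and cuticle cells were mixed.

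Da is the only E-protein of the fly. E-proteins are basic helix-loop-helix (bHLH) factors that bind the E-box, CANNTG, as dimers with themselves or with tissue-specific class 2 bHLH proteins, and the HLH protein Extramacrochaetae (Emc), which lacks the basic region, holds them off DNA. Da is known for its part in neurogenesis and sex determination. Distal intergenic sequence is where enhancers often lie, and an enhancer can act on a gene that is not its nearest.

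The sequences below are the summit windows of some of the strongest distal intergenic regions. They are shown because the E-box within 50 bp of the summit is the feature on which most tests turn. Each is 101 bases of the Release 6 genome, plus strand, named by the nearest start of a protein-coding gene. Capitals mark CAGCTG or CAGGTG or CAGATG, called the 3 E-boxes below, on either strand.
noc, chr2L:14506858-14506958: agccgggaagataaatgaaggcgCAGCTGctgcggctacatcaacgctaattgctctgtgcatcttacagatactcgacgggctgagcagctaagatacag
stck, chr3R:8353530-8353630: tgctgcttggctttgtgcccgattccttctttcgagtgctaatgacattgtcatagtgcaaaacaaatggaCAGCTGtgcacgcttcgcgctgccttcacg
CG32137, chr3L:13935148-13935248: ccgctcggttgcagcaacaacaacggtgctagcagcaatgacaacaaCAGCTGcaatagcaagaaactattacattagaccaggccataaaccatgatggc
CG12483, chr3L:109238-109338: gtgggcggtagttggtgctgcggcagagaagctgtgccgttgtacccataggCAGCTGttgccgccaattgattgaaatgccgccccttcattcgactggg
CG13024, chr3L:16835337-16835437: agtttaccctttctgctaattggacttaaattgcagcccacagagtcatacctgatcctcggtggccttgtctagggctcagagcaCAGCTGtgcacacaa
CG13898, chr3L:786157-786257: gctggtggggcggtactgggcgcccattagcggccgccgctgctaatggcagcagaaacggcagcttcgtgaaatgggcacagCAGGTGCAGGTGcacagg
CG13898, chr3L:788991-789091: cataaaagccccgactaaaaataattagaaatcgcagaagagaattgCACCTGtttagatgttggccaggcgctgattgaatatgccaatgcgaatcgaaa
Pex7, chr3L:8657375-8657475: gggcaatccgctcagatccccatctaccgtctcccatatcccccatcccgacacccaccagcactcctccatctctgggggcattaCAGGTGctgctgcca
chinmo, chr2L:1644526-1644626: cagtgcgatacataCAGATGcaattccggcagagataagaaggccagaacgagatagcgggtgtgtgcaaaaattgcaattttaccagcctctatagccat

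In 3 of these windows the marked E-box was centred within 4 bp of the summit: that near CG32137, that near CG12483, and the lower of the pair near CG13898. The upper window near CG13898 held 2 copies of CAGGTG in direct repeat, centred 35 and 41 bp from the summit. Strong regions also occurred with no E-box of any kind in the window, and the best ranked of these are given next for comparison. Both are GC rich, at 59.4 and 63.4%. That near Aps lacks one by a few bases only, since the window centred on the replicate 1 summit, 6 bp away, holds CAGCTG.
Prat2, chr3L:6904144-6904244: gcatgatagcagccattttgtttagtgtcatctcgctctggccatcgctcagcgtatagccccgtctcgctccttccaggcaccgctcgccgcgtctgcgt
Aps, chr3L:10913651-10913751: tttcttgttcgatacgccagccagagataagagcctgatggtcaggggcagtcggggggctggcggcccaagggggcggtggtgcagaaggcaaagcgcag

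The 3xFLAG-Da libraries were deeper than the Control libraries. Coverage, recovered from the lists in fragments per position, was 9.36 and 4.17 in 3xFLAG-Da IP 1 and 2, against 1.92 and 1.72 in Control IP 1 and 2. Distal intergenic peaks numbered 544 of 10915 (4.98%) and 413 of 8745 (4.72%) in the 3xFLAG-Da lists, against 28 of 453 (6.18%) and 46 of 707 (6.51%) in the Control lists. Summit windows of 50 bp on each side held CAGCTG in 11.6 and 14.5% of these 3xFLAG-Da peaks, against 1 of 28 and 2 of 46 of the Control peaks (3.57 and 4.35%, with 95% Wilson intervals up to 17.7 and 14.5%). Intervals of shares cover counting error only. The absence of a Control peak is a weak criterion at this depth. Only 62 of the 286 regions (21.7%) would be called with a probability of 0.95 or more at the coverage of Control IP 1, against 32.2% of all 6649 regions, and for 127 (44.4%) that probability was below 0.5. Before regions with a Control peak were removed there were 307 distal intergenic regions, of which 21 (6.84%) touched one. Of all 7237 regions shared by both 3xFLAG-Da lists, 91.9% had no Control peak.

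Distal intergenic regions lay on every large chromosome arm. There were 54 on 2L, 58 on 2R, 83 on 3L, 63 on 3R and 24 on X, with 2 on chromosome 4 and 2 on unplaced scaffolds. Sequence that meets the position rule makes up 21.8% of the 5 arms. Per Mb of that sequence there were 5.70 regions on X, against 9.45 to 11.1 on the other 4 arms, whereas all 3xFLAG-Da regions together numbered 48.7 per Mb of X and 48.0 to 53.7 per Mb of the others. Thus X held fewer distal intergenic regions for its eligible length, while its regions of all kinds lay within the range of the other arms. Males carry a single X, and the median local background at distal intergenic summits of 3xFLAG-Da IP 1 was 9.57 fragments on X and 10.9 to 11.6 on the other arms. The part of depth in the lower number on X was not tested.

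The median summit lay 4836 bp from the nearest transcript start, 132 summits lay over 5 kb away, 55 over 10 kb and 16 over 20 kb, leaving out the 2 on unplaced scaffolds, which have no annotated start. The nearest start belonged to a protein-coding gene for 194 regions, to an RNA gene annotated as ncRNA for 74 and to a tRNA gene for 14. Summits lay upstream of that start in 138 regions. The regions spread over 226 intervals between genes. In 40 of these intervals there were 2 or more, and these held 100 of the regions. At the limit of 2000 bp, the regions just inside lay 2011 to 2086 bp from starts of hry, Ir56d, CG11438, CG1888 and Act87E, with folds of 2.10 to 10.8 in 3xFLAG-Da IP 1. Those just outside lay 1907 to 1988 bp from starts of Mhc, lncRNA:CR45750, CG6465, CG13204, CG1648, toe and by, with folds of 2.28 to 11.4.

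The fold of a region is the deposited enrichment of its best peak over the local background. Among the 286 regions it ranged from 1.79 to 18.1 (median 4.25) in 3xFLAG-Da IP 1 and from 2.11 to 23.5 (median 4.73) in 3xFLAG-Da IP 2. Promoter regions, with the summit within 1000 bp of a start, had medians of 4.83 and 5.22. Medians were 3.96 and 4.48 for regions inside genes over 2 kb from a start, and 3.98 and 4.64 for regions 1 to 2 kb from a start. The fold was higher in IP 2 than in IP 1 for 210 of the 286, and across regions both folds ranked alike (Spearman's rho 0.734, a description over regions chosen by these same peaks). Summits of both lists lay a median of 40 bp apart. Distal intergenic regions, 4.3% of all regions, made up 8 of the 100 best ranked and 63 of the 1662 best ranked of all 6649, which is 22.0% of the distal intergenic regions.

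**Figure D1:**
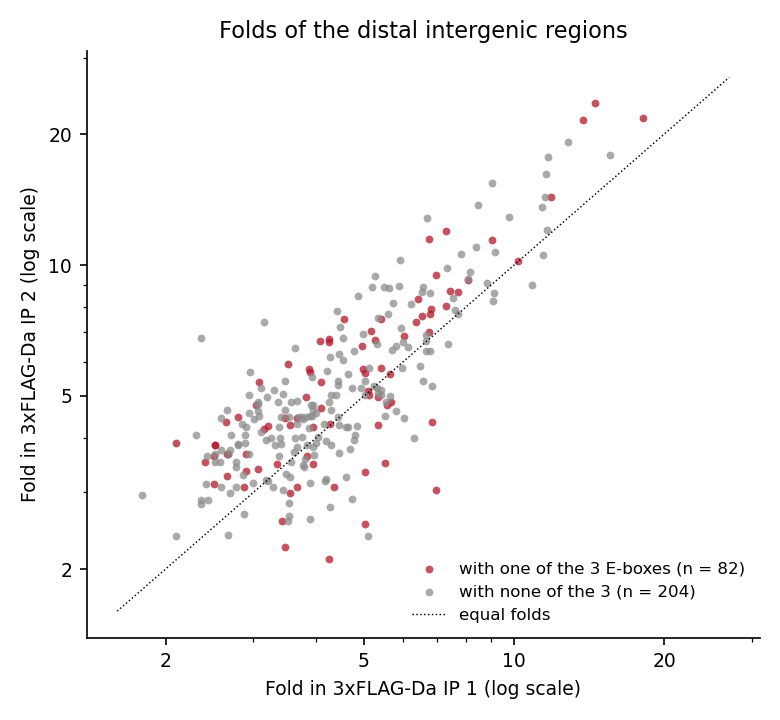
Fold of each of the 286 distal intergenic regions in 3xFLAG-Da IP 1 (x axis) and IP 2 (y axis), both on log scales, with regions holding one of the 3 E-boxes within 50 bp of the summit in red. Most points lie above the line of equal folds (210 of 286), and regions with and without these E-boxes occur at all strengths.

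The strongest distal intergenic region lay beyond noc on 2L, at 14506517 to 14507504, with folds of 18.1 in IP 1 and 21.8 in IP 2. noc encodes a zinc finger protein needed for head development, and its start lay 16049 bp away, although that of lncRNA:CR45693 was nearer. Its window held the CAGCTG shown first above. Pileups at this summit were 207 and 140 fragments over local backgrounds of 10.5 and 5.47. The third region, at 8352869 to 8354563 of 3R, lay 3398 bp upstream of stck, which encodes the adhesion protein PINCH, and had CAGCTG and folds of 13.7 and 21.5. The eighth, at 13934936 to 13935483 of 3L between DCTN1-p150 and CG32137, had folds of 11.9 and 14.3 and CAGCTG exactly at its summit.

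Of the other strongest regions, none held one of the 3 E-boxes in the window of the replicate 2 summit, apart from 1 in the interval beyond emc described next. The fourth, with folds of 15.6 and 17.9, lay on 3L at 6903922 to 6904483. It was between vvl, a POU homeodomain factor gene, and Prat2, a gene of purine synthesis, with lncRNA:CR45416 nearer than vvl. Its window is the first of the pair with no E-box. The sixth, 14578 bp upstream of Aps on 3L at 10912874 to 10913985, had folds of 11.7 and 17.7. The seventh, at 21640965 to 21642601 of 2R, had folds of 11.6 and 16.2 and lay 4183 bp upstream of the inositol phosphate kinase gene Ip6k. The ninth, with folds of 11.6 and 14.3, lay on 2R at 12990625 to 12992176. It was between the protein-coding genes CG33798 and Psc, of the Polycomb group, with lncRNA:CR44339 nearer than Psc. The tenth and twelfth lay on 2L, at 14572472 to 14573294 upstream of CG3473 and at 14094598 to 14094981 between CG46301 and the acetylcholine receptor subunit gene nAChRalpha5, with folds of 11.4 and 13.6 for the tenth and 9.05 and 15.5 for the twelfth.

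Among the next regions by rank, 4 intervals beside genes of neurons or of transcription are named here after their values were seen. The interval between CG8519 and ple, the gene of tyrosine hydroxylase, on 3L held 2 regions with folds of 9.16 and 10.7 at 6709932 to 6711206, and of 9.14 and 8.65 at 6711875 to 6713312. Folds were 8.46 and 13.8 for the region beside grn, a GATA factor gene on 3R (8190642 to 8191323). That between Sox21a and Sox21b on 3L at 14111411 to 14111860 had folds of 9.05 and 8.27, and that between Pld and the zinc finger gene jing on 2R at 6494253 to 6494664 had 7.34 and 9.86. The start of lncRNA:CR46075 was nearer to the last of these than that of jing. At these 5 summits there was 0 of the 3 E-boxes.

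The interval with the most distal intergenic regions lay downstream of emc, the gene of the HLH inhibitor of Da. It runs on 3L from 770463 to 803426, between tRNA:Ile-TAT-1-2 and CG13898, and its 32964 bp held 8 regions. Their summits lay 23.9 to 46.4 kb from the start of emc. The folds reached 14.5 and 23.5 at 785443 to 786585, the second strongest distal intergenic region. They were 12.8 and 19.2 at 791116 to 792850, the fifth by rank, and 11.6 and 12.1 at 783913 to 785043, the eleventh. The weakest of the 8, at 773129 to 775508, had folds of 5.65 and 4.85, both above the medians of all distal intergenic regions. By contrast, the region at the emc promoter, without a Control peak, had folds of 4.33 and 5.68. A region 1.39 kb into the gene had folds of 7.95 and 9.86 but touched a Control peak. Of the 8, 4 held one of the 3 E-boxes at the replicate 2 summit: CAGGTG in the second and the thirty-first of the 286 by rank, CAGCTG at 795572 to 796041 and CAGATG at 773129 to 775508. The last merges 3 peaks of IP 2, and its replicate 1 summit, 1758 bp away, had no E-box in its window. Distal intergenic regions on either side of the interval, 16.4 and 59.9 kb from the emc start, had folds of 4.46 and 3.70, and of 3.82 and 4.98. The emc gene lies inside the span of hng3 (737680 to 755489), which is on the other strand. By nearest protein-coding start, the 8 regions fall to hng3 or to CG13898. By nearest start, none of these regions would be assigned to emc, which is named here after its values were seen. Whether any of them acts on emc was not tested.

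**Figure D2:**
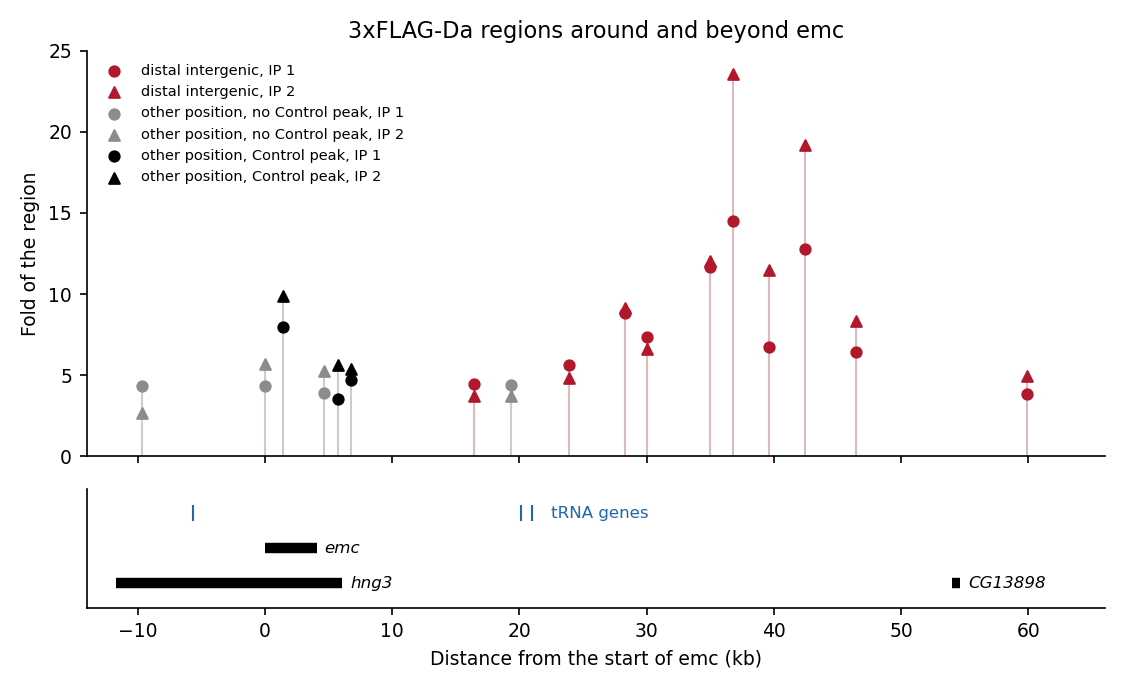
Folds of 3xFLAG-Da regions (upper panel, circles IP 1, triangles IP 2) by distance in kb from the start of emc, with genes below. Red points are distal intergenic regions, grey points other regions without a Control peak and black points regions with one, and the highest folds lie 35.0 to 42.5 kb beyond the start.

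Other intervals also held several regions. The 75047 bp between NijA, which encodes an adhesion protein of the ninjurin family, and CG43245 on 3L held 7 regions with folds of 2.85 to 6.13 in IP 1 and 3.09 to 8.85 in IP 2, of which 1 had one of the 3 E-boxes. A further region there, at 10738088 to 10740704, had folds of 5.60 and 11.8 and was dropped because both Control lists held a peak. The 36783 bp between Su(z)2, a Polycomb group gene, and CG13323 on 2R held 4 regions with folds of 2.85 to 5.70 in IP 1 and 2.83 to 8.16 in IP 2, of which 0 had one of the 3 E-boxes. Between tRNA:Phe-GAA-1-7 and tal-2A on 3R there were 4 regions with folds up to 4.96 in IP 1 and 6.53 in IP 2. tal-2A belongs to a locus coding for small peptides. Aps to lncRNA:CR45248 on 3L and CG10321 to Ip6k on 2R held 3 each, with folds up to 11.7 and 11.6 in IP 1, and 17.7 and 16.2 in IP 2. When only protein-coding genes bound the intervals, vvl to Prat2 also held 4, at 6807850 to 6904483, and noc to CG33648 held 3. Folds reached 15.6 in IP 1 and 17.9 in IP 2 from vvl to Prat2, and 18.1 and 21.8 from noc to CG33648.

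To see whether distal intergenic summits hold E-boxes, the 101-bp summit window was compared with the windows shifted by 250 bp to both sides, a comparison that uses sequence alone. CAGCTG lay in 42 of 286 summit windows (14.7%, 95% Wilson interval 11.1 to 19.3%) and in 5.24% of shifted windows (3.70 to 7.39%). The odds ratio was 3.11 (95% interval 1.90 to 5.09, adjusted p = 6.27e-05, n = 858 windows, logistic regression, Wald test, Benjamini-Hochberg over 10 E-boxes). Across all 6649 regions the share with CAGCTG at the summit was 14.8%. CACTTG also passed, at 11.5% of summits and 6.29% of shifted windows (odds ratio 1.94, 1.18 to 3.19, adjusted p = 0.0432, n = 858). So did CAGGTG, at 9.09 and 4.72% (odds ratio 2.02, 1.15 to 3.53, adjusted p = 0.0457, n = 858). CAGATG did not pass, with 6.99 and 4.02% (odds ratio 1.79, 0.968 to 3.33, adjusted p = 0.105, n = 858). The 6 others, among them CACGTG at 1.05% in both kinds of window, did not pass either.

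The calls were lost when base composition entered the fit. Summit windows had a median GC content of 49.5% and shifted windows 39.6%. With GC content as a covariate the odds ratio of CAGCTG was 2.18 with an adjusted p of 0.0588, that of CAGGTG was 1.03, that of CACTTG was 1.40, and 0 of the 10 E-boxes passed. At an unadjusted p under 0.05, CAGCTG (p = 0.00588) and CATATG (odds ratio 2.85, p = 0.0388) did (n = 858). The narrower window of 25 bp on each side also left 0 past the threshold, with 2.31 for CAGCTG (adjusted p = 0.0805, n = 858). CAGGTG was also lost with standard errors clustered on the region (adjusted p = 0.0516, n = 858), and without 3xFLAG-Da IP 2 its odds ratio was 4.15.

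At least one of the 3 E-boxes was found in 82 summit windows (28.7%), against 13.1% of shifted windows, and in 26.8% of the summit windows of all 6649 regions. The remaining 204 regions had none of the 3, and 40.2% had no E-box of any kind. In bins of 50 bp the 3 E-boxes were most frequent just above the summit, in 17.5% of distal intergenic and 14.4% of promoter regions. The bin just below it had 15% of distal intergenic and 13.6% of promoter regions. In the bins from 50 to 100 bp the distal intergenic shares were 12.6% below and 16.1% above the summit, and beyond 200 bp they were 4.55 to 8.74%.

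**Figure D3:**
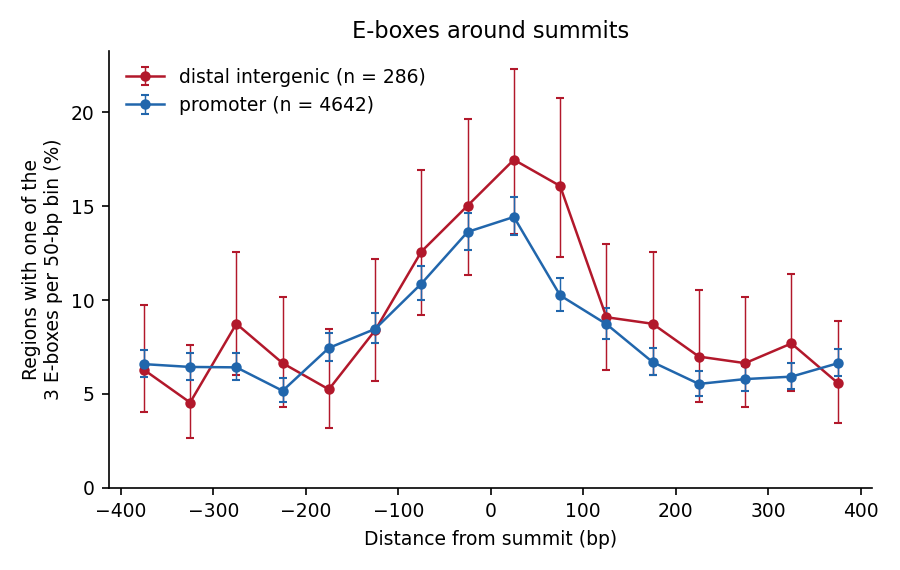
Share of regions with one of the 3 E-boxes in each 50-bp bin by distance from the summit in bp, for distal intergenic (red) and promoter (blue) regions, with 95% Wilson intervals. In both, the share is highest in the bin just above the summit, at 17.5% for distal intergenic and 14.4% for promoter regions, and for distal intergenic regions the next bin out, at 16.1%, is second.

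Next, it was asked whether the E-boxes of distal intergenic regions differ from those of other positions. The test was the interaction of window kind and position class, run for 10 E-boxes against promoter regions, regions 1 to 2 kb from a start and regions inside genes over 2 kb from a start. Of these 30 interactions, 0 passed an adjusted p of 0.05. At an unadjusted p under 0.05 there were 5, the lowest for CAGGTG against intragenic regions (ratio of odds ratios 0.438, 0.231 to 0.830, adjusted p = 0.170, n = 4233 windows), where 9.09% of distal intergenic and 11.6% of intragenic summits held it. For the 3 E-boxes combined the ratio was 0.661 against intragenic regions (0.444 to 0.985, n = 4233) and 0.608 against regions 1 to 2 kb from a start (0.390 to 0.946, n = 2646), both with an adjusted p of 0.0626 over the 3 classes, and 0.954 against promoter regions. For CAGCTG the ratio was 0.790 against promoter regions (95% interval 0.474 to 1.31, adjusted p = 0.773, n = 14784 windows), so the data leave room for a lower or a higher enrichment at distal summits. Summit shares of CAGCTG were 14.7% in distal intergenic and 14.6% in promoter regions. Comparing summit windows only, without the shifted windows, CACATG was more frequent in distal intergenic regions (8.39%) than in promoter regions (4.50%), a 1.94 odds ratio (1.25 to 3.02, adjusted p = 0.0468, n = 4928 windows). So was CAAATG, at 14 and 8.55% (odds ratio 1.74, 1.23 to 2.47, adjusted p = 0.0468, n = 4928). Neither passed the interaction test (adjusted p of 0.318 for CACATG and 0.510 for CAAATG). Intragenic summits held CACATG in 8% and CAAATG in 11.6%. In regions 1 to 2 kb from a start the summit shares were 9.23 and 12.2%. Both differences are therefore from promoter regions, and are not shown to be particular to distal intergenic regions.

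Within the distal intergenic regions, CAGCTG was not shown to follow strength. The odds ratio per doubling of the mean fold was 1.5 (0.894 to 2.52, p = 0.125, n = 286 regions, logistic regression). With the regions split into 4 groups of 71 or 72 from the strongest to the weakest, it was present in 18.1, 14.1, 14.1 and 12.5%. Without 3xFLAG-Da IP 2, where the longer list of IP 1 stands alone, the odds ratio was 1.68 (p = 0.0179, n = 513 regions).

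Of 14 other motifs searched on both strands, the repeat CACACACA was most enriched at distal intergenic summits. It lay in 18 of 286 summit windows (6.29%) and in 1.22% of shifted windows, an odds ratio of 5.42 (2.24 to 13.1, adjusted p = 0.00130, n = 858). Promoter regions had it in 3.73% of summit and 3.67% of shifted windows. With GC content as a covariate the odds ratio was 3.87 and did not pass (adjusted p = 0.0799, n = 858), and at replicate 1 summits it was 3.13 (adjusted p = 0.0159). The interaction of window kind and class, distal intergenic against promoter, passed (ratio of odds ratios 5.34, 2.16 to 13.2, adjusted p = 0.00312), also with GC content as a covariate (4.31, adjusted p = 0.0176, n = 14784). The motifs were not compared with intragenic regions or regions 1 to 2 kb from a start. The difference is therefore from promoter regions, and is not shown to be particular to distal intergenic regions. Between summit windows alone, distal intergenic and promoter regions did not pass (odds ratio 1.74, adjusted p = 0.114, n = 4928). Of the 18 windows with CACACACA, 3 also held one of the 3 E-boxes, against 28.7% of all 286 summit windows. No E-box of any kind was found in 8 of the 18, against 40.2% of all 286. These differences were not tested. The Sp/Klf motif GGGCGG was found at 9.09% of distal intergenic summits and 4.55% of promoter summits (odds ratio 2.10, 1.37 to 3.22, adjusted p = 0.00708, n = 4928), while its enrichment over shifted windows did not pass (odds ratio 1.87, adjusted p = 0.0696) and was 0.721 with GC content as a covariate. CAGGTAG, the site of the factor Zelda, was found at 1.75% of distal intergenic and 0.474% of promoter summits (odds ratio 3.74, adjusted p = 0.0455, n = 4928). That rests on 5 distal intergenic windows. Neither the comparison with shifted windows (1.05%, odds ratio 1.68, adjusted p = 0.726, n = 858) nor the interaction (adjusted p = 0.516, n = 14784) passed.

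Some motifs were less frequent at distal intergenic summits. TATAAA was found in 5.94% of summit windows and 14.9% of shifted windows (odds ratio 0.362, 0.211 to 0.622, adjusted p = 0.00130, n = 858). The homeodomain core TAATTA was found in 4.55 and 10.7% (odds ratio 0.399, 0.215 to 0.739, adjusted p = 0.0128, n = 858). Both are made of A and T alone, and with GC content as a covariate the odds ratios were 1.24 and 0.713 and neither passed (unadjusted p = 0.514 for TATAAA and 0.336 for TAATTA, n = 858). The core promoter elements DRE (TATCGATA) and Ohler motif 1 (GGTCACACT) were in 0 of 286 distal intergenic summit windows, which allows a share of up to 1.05%. They were in 3.92 and 3.43% of promoter summit windows (p = 2.89e-05 for DRE and 9.91e-05 for Ohler motif 1, Fisher's exact test, two-sided, chosen after the zeros were seen). Shifted distal intergenic windows lacked them too, with DRE in 1 of 572 and Ohler motif 1 in 0 of 572. The rule kept summits over 2000 bp from every start, so the tests against promoter regions cannot tell a trait of distal intergenic regions from how regions were chosen. The Mef2 motif was searched with any bases at its centre, so a match need not be a Mef2 site. It was also in 0 of 286 summit windows. It was in 12 of 572 shifted windows (p = 0.0110) and 1.46% of promoter summit windows (p = 0.0325, Fisher's exact test, two-sided, unadjusted). Its fixed bases are mostly A and T, and summit windows were richer in GC than shifted windows (medians of 49.5 and 39.6%). The motif had no fit with GC content as a covariate, so the part of base composition was not tested.

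**Figure D4:**
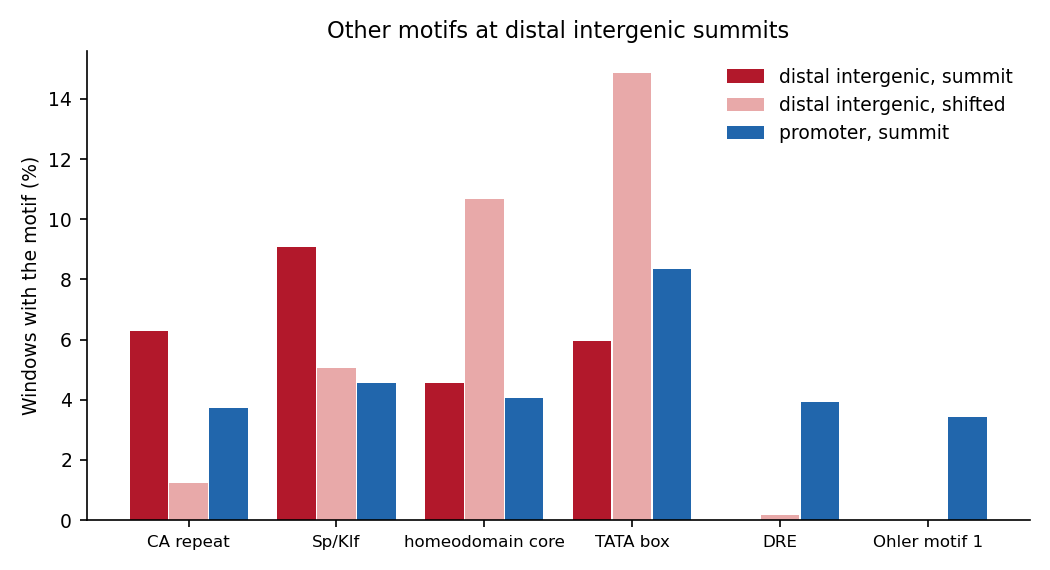
Share of windows with each motif, at distal intergenic summits (red), in the windows shifted by 250 bp (pink) and at promoter summits (blue). The CA repeat stands at 6.29% of distal intergenic summits against 1.22% of shifted windows, and the promoter elements DRE and Ohler motif 1 are at 0 in distal intergenic summits.

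Transposable elements held few of these summits: 4 of 286 (1.40%), against 5 of 4642 promoter summits. Of the 4, 2 lay in copies of HeT-A, a retrotransposon that maintains fly telomeres, beyond the last annotated gene Cadps on chromosome 4. Their folds were 6.79 and 7.71 at 1305995 to 1306787, and 4.09 and 6.69 at 1318088 to 1319275. Both windows held CAGCTG, and they shared a run of 38 identical bases, so they are not independent. The local background in IP 1 was 19.5 and 58.0 fragments there, against a median of 11.4 over all distal intergenic regions.

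The genes nearest to distal intergenic regions were described through 7 lists. Of 3424 protein-coding genes whose start is the nearest to some distal intergenic sequence, 228 (6.66%) had at least 1 region, and this share ran from 0.730% of the 685 genes with the least such sequence to 11.8% of the 685 with the most. Lists are therefore read as counts only. The median distal intergenic sequence per gene was 9.65 kb for eye, head and neural transcription factor genes. It was 1.675 kb for Notch and EGF receptor pathway genes and 3 kb for all protein-coding genes. Among eye, head and neural transcription factor genes, 7 of 52 had a region. Besides noc with 2, these were oc, the homeodomain gene of head and ocelli (folds 9.75 and 12.9), chinmo, which sets the temporal identity of neurons (folds 7.71 and 8.68, the CAGATG shown above), the homeodomain gene ct (6.53 and 7.62, with CAGGTG), vvl with 3, ems with 2 and Dr. Among Notch and EGF receptor pathway genes, 3 of 12 had one: hry, a bHLH repressor gene (2 regions, the stronger with folds of 10.8 and 8.98), sty, an inhibitor of receptor tyrosine kinase signalling (5.64 and 5.0), and Su(H), the DNA-binding factor of Notch signalling (2.7 and 3.76).

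Class 2 bHLH genes, whose products can pair with Da, had 1 of 10, tx, whose region lay 2177 bp upstream with folds of 7.61 and 7.90. The 1 of 7 nuclear receptor genes was kni (5.87 and 8.93), the 1 of 16 chemoreceptor genes Or22b (2.40 and 3.53), and the 1 of 50 surface recognition and axon guidance genes the immunoglobulin family gene hbs (3.11 and 5.22). Synaptic transmission and channel genes had 0 of 26, with a median of 3.00 kb of distal intergenic sequence each, as for all protein-coding genes. Medians were 2.375 kb for class 2 bHLH, 13.8 kb for nuclear receptor, 5.925 kb for chemoreceptor and 5.8 kb for surface recognition genes. All these counts go by the nearest protein-coding start only. Thus nAChRalpha5, brp, Rdl and the class 2 bHLH gene net bound intervals with a region that counts for the gene on the other side.

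**Figure D5:**
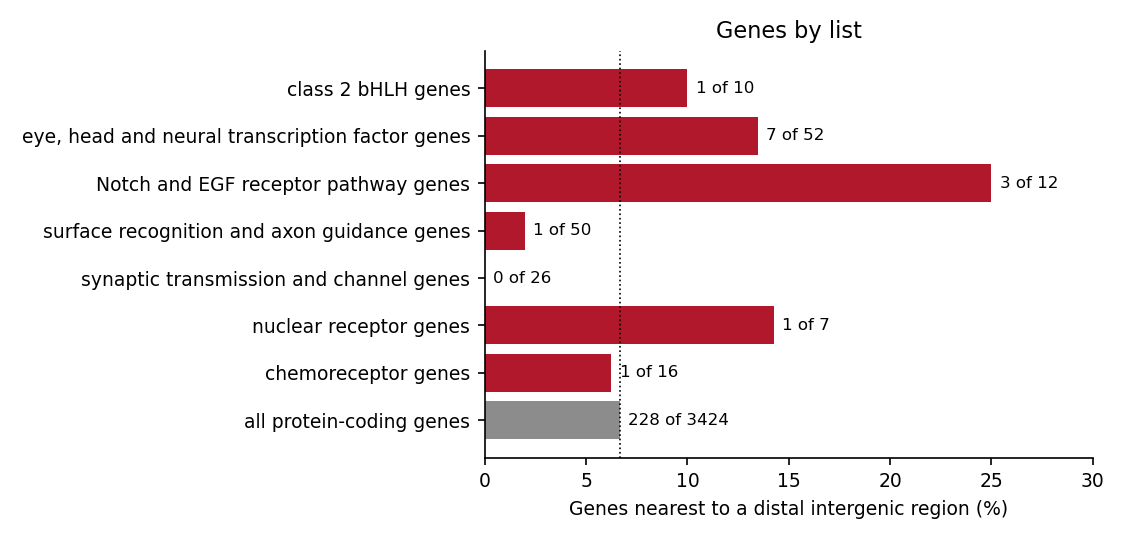
Share of genes in each list that had the protein-coding start nearest to at least 1 distal intergenic region, among genes with such sequence, with the counts and, as the dotted line, the 6.66% of all protein-coding genes. The longest bars rest on 1 to 7 genes.

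Of the 21 distal intergenic regions dropped for a Control peak, the strongest lay near CG3847 on X at 6343769 to 6344801, with folds of 28.3 and 38.1 in the 3xFLAG-Da lists, against 64.3 and 82.3 in the Control lists. The others had folds of 3.48 to 13.6 in 3xFLAG-Da IP 1. Among them were regions nearest to Rh5, a rhodopsin gene of the eye, with 13 and 18.2 in the 3xFLAG-Da lists and 5.49 in Control IP 2 only, to RYBP, with 13.6 and 21, against 5.01 in Control IP 2 only, and to B-H1, a homeodomain gene, with 4.54 and 3.09, against 6.25 in Control IP 2 only. Regions with a higher 3xFLAG-Da than Control fold were thus also removed by the rule, and folds of libraries of different depth are not compared further.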

How the data were processed

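Chromatin from heads was immunoprecipitated with an anti-FLAG antibody, and libraries were sequenced from one end to 75 bp. The authors aligned the reads to BDGP6.32 (Ensembl release 104) with Bowtie2 2.5.1, used SAMtools 1.12 to keep non-duplicate reads of mapping quality 20 or more, and ran MACS2 2.2.7.1 with the matching input as background and a q-value limit of 0.05. The lists are per replicate. Each of the 4 deposited peak lists gives a fold (the authors' ratio of pileup to local background at the summit, with 1 added to both), a −log10 p and a −log10 q set by the authors' caller, and a deposited score that was not used. Input libraries entered only through that calling.

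Pileup and background were recovered from fold and −log10 p under the Poisson model (tolerance 0.002, 99.3 to 100% of the peaks of a list), and coverage is the most frequent background. Gene models were Ensembl release 115 (BDGP6.54, 18358 genes, with 5896 transposable elements left out) and sequence was Release 6 from RefSeq, which shares its coordinates with BDGP6. Coordinates count from 1. Regions overlapped by 1 bp or more, and the summit was that of the replicate 2 peak with the lowest start. Motifs were searched on both strands within 50 bp of the summit and in windows shifted by 250 bp, and tested by logistic regression (statsmodels 0.14.6, Wald p-values, Benjamini-Hochberg adjustment at 0.05). Regions share libraries and chromosomes and are not replicates of a condition, so the tests describe these 4 lists. The replicates are called biological replicates, with no further detail. The chance of a call at Control depth came from binomial thinning of the replicate 1 pileup to the coverage of Control IP 1.

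Regions were named by rule: the 12 best by mean fold rank, those nearest to genes of 7 lists, the intervals with the most regions and those beside the limit of 2000 bp. The emc locus, the intervals of ple, grn, Sox21a and jing, and regions dropped for a Control peak were picked once their values were known. The regions, lists, motifs and tests were chosen with earlier results of these data known. The fits were tested on simulated data.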

Additional observations from a re-analysis of the deposited data

How the results depend on the processing

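The number of distal intergenic regions was 134 with a limit of 5000 bp (the 2 on scaffolds without a start included), 446 with protein-coding genes only, 62 among regions callable at Control depth and 513 without 3xFLAG-Da IP replicate 2. Leaving out 1 library at a time gave 286 to 513 regions, an odds ratio of 3.11 to 3.49 for CAGCTG, 2.02 to 4.15 for CAGGTG and 1.39 to 1.81 for CAGATG, 1.24 to 1.68 per doubling of fold, and an interaction for CAGCTG of 0.791 to 1.09 against promoter and 0.855 to 1.01 against intragenic regions.

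The CAGCTG odds ratio no longer passed with GC content as a covariate (2.18) and within 25 bp of the summit (2.31), and passed under 18 of 20 alternatives. The CAGGTG odds ratio did not pass under 6: GC content (1.03), 25 bp (2.58), an overlap of 50% of both peaks (2.21), callable regions (4.32), and clustered errors and Fisher's exact test (2.02 in both). CAGATG passed with protein-coding genes only (2.08) and within 100 bp (2.02), and was 0.830 within 25 bp. The number of the 10 E-boxes that passed, counted after the data were seen, was 3 as reported, 5 with protein-coding genes only and within 100 bp, 1 with an overlap of 50%, callable regions or Fisher's exact test, and 0 with GC content or within 25 bp. Strength passed with a −log10 q of at least 5 (1.91) and over 1000 bp from starts (1.62), and was 0.812 among callable regions. The CAGCTG interaction passed under 0 alternatives but changed side: against promoter regions it was 1.09 over 1000 bp from starts, 1.57 among callable regions, 1.36 at replicate 1 summits, 1.22 with a shift of 500 bp and 1.09 without 3xFLAG-Da IP replicate 2, and against intragenic regions 1.1 over 1000 bp from starts, 1.19 at replicate 1 summits, 1.29 with the shift and 1.01 without that replicate. The cause of these changes was not tested, except that stricter rules leave fewer regions by construction.

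Of 3 alternatives added after seeing the data, CACACACA passed under 2 (3.13 and 5.42) and not with GC content (3.87). No paired analysis was possible because replicate numbers enter no fit, the tests running over regions found in both replicates. The windows of a region were paired only through errors clustered on it. Depth limits what the Control lists can show.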
